A study of Homo sapiens with 12 samples.

Results

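The genes of glycolysis and of the pentose phosphate pathway were followed in HK-2 cells, an immortalised human line from the renal proximal tubule, after exposure to an agent labelled Ra or to its control vehicle. The module was a list of 33 genes chosen by function: glucose transporters, glycolytic enzymes and their regulators, lactate enzymes and carriers, pyruvate dehydrogenase kinases, and enzymes of the pentose phosphate branch. A probe set annotated to exactly 1 gene was found for 31 of the 33 genes. The lactate carriers SLC16A1 and SLC16A3 were not analysed here. The filter on low values, a level of at least 5 log2 units on at least 3 of the 12 arrays, was passed by 29 genes, and PFKFB4 and ALDOC did not pass it. The highest level of any PFKFB4 probe set on any array was 5.41 log2 units, and that of ALDOC was 2.28. Over the whole array, 19775 genes had such a probe set and 10050 were tested.

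The 12 samples formed 4 groups of 3 biological replicates: Ra for 48 h, control for 48 h, Ra for 12 h and control for 12 h. All cells were grown in the same medium, which held 5 mM glucose with insulin, epidermal growth factor, hydrocortisone, transferrin and selenium. They were plated 24 h before exposure and exposed at about 90% confluency, so the later groups had also spent longer as a dense culture in the wells. The sources used here name neither the agent behind the label Ra nor its dose. All replicates came from 1 immortalised line.

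Glycolysis takes glucose in through GLUT transporters, traps it as glucose 6-phosphate by hexokinase, commits it at phosphofructokinase and yields pyruvate, which lactate dehydrogenase can convert to lactate. Pyruvate dehydrogenase kinases switch off the entry of pyruvate into the citric acid cycle. The pentose phosphate pathway branches off at glucose 6-phosphate and supplies NADPH and ribose 5-phosphate. The proximal tubule in the kidney relies mostly on oxidation and makes glucose more than it uses it, whereas cultured tubule cells are known to depend more on glycolysis.

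Total RNA was measured on Affymetrix 3′ expression arrays, and the deposited values were log2 intensities computed by GCRMA. Of the marker genes of epithelial cells, 6 of 6 passed the filter (KRT7, KRT8, KRT18, KRT19, CDH1 and EPCAM), but of 12 markers of proximal tubule only 2 did (PAX8 and CDH2). A marker without a probe set annotated to exactly 1 gene would also count here as not passing. Past the test were 1 epithelial marker at 12 h and 2 over time in control cells, 1 proximal tubule marker in each of these comparisons, and 0 of both lists at 48 h. At 12 h the summed linear level of the 6 epithelial markers was 26500 to 28500 in Ra-treated cells, against 23100 to 26300 in control cells, and that of the 2 proximal tubule markers was 2450 to 2580 in Ra-treated cells, against 2830 to 3100 in control cells, without overlap in either; their part in the results was not tested. Of 8 immune markers 0 passed, and of the 9 fibroblast, 8 endothelial, 6 distal nephron and 6 podocyte markers, 3, 1, 1 and 3 passed, with 0 of these 8 past the test in Ra against control at either time or between the control times. The array of Ra 48 h replicate 2 stood apart: the 75th percentile of its probe sets was 6.30 log2 units, against 7.01 to 7.21 on the other 11 arrays. The difference between the GAPDH 3′ and 5′ control probe sets lay between -0.11 and 0.03 log2 units on all 12 arrays. The median SD of a gene over the replicates was 0.43 log2 units in Ra 48 h, 0.22 in control 48 h, 0.12 in Ra 12 h and 0.12 in control 12 h. In bulk RNA, fewer cells making a transcript and less of it per cell cannot be told apart.

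At 12 h PDK2 and PDK1, kinases that inhibit pyruvate dehydrogenase, and PGLS, a lactonase of the pentose phosphate pathway, rose in Ra-treated cells, while HK1, the widely expressed hexokinase, and PGAM1, a phosphoglycerate mutase, fell. These 5 of the 29 tested members passed the test (adjusted p under 0.05, limma over all genes), which is 17.2% of them, against 13.6% of all 10050 tested genes; 3 rose, where 7.34% of all genes did, and 2 fell, where 6.25% did. The changes spanned -0.33 to 0.94 on the log2 scale, and PDK2 was 1.92-fold higher. The median difference of the 29 members was 0.05 log2 units, and that of all tested genes was 0.01. Same-numbered replicates of the 2 groups deviated together at 12 h, and with the replicate number as a block 10 members passed, against 23.4% of all tested genes: SLC2A3, TKT and TALDO1 joined the higher ones, and HK2 and LDHA the lower ones. With 1 array left out, the number of members called was 0 without Ra replicate 1 or 2, where 332 and 293 of all genes passed. It was 1 without control replicate 1 (PGAM1, 412 genes) or 2 (PDK2, 527 genes), and 2 without control replicate 3 (PDK2 and PGLS, 584 genes). Without Ra replicate 3 it was 5, with 1388 of all genes, but these 5 were ALDOA, PDK2, PGLS, TKT and HK2. The calls of HK1 (adjusted p = 0.0576 to 0.132) and PDK1 (adjusted p = 0.0634 to 0.135) were lost whichever of the 6 arrays was left out.

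At 48 h no member passed the test, and neither did any other gene, so the percentage called was 0%; the lowest adjusted p of any gene was 0.168, while 1748 genes had an unadjusted p under 0.05. PDK1, PFKFB2, HK2 and SLC2A1 had lower levels on all 3 Ra arrays than on all 3 control arrays, by 0.69 to 1.11 log2 units. These 4 genes are 13.8% of the 29 members, against 18.6% of all tested genes whose Ra arrays all lay lower, and no member had all Ra arrays higher, against 5.37% of genes. The median difference was 0.01 log2 units over the members and -0.20 over all genes. After quantile normalization, which moved the median of all genes to 0.01, HK2 (-0.71 ± 0.16, adjusted p = 0.0458) and PDK1 (-0.85 ± 0.19, adjusted p = 0.0457) passed, among 639 genes or 6.36%. A fit with 1 spread pooled over the 12 arrays called HK2, PDK1 and SLC2A1 lower and no member higher, which is 10.3% of members. It called 12.6% of all 10050 tested genes in either direction, 961 of them lower and 301 higher.

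In control cells 10 members changed with time in culture. SLC2A3 and SLC2A1, the glucose transporters GLUT3 and GLUT1, rose between 12 h and 48 h by 1.63 and 0.94 log2 units, and PFKFB2, PDK2, ENO2, PDK1, PGLS and HK2 rose by 0.56 to 1.35, while PKM and PGAM1 fell. These 10 members are 34.5% of the 29, against 33.2% of all tested genes; 8 rose and 2 fell, while 16.6% of all genes rose and 16.6% fell. When 1 of the 48 h controls was left out, the count became 8 (replicate 1), 5 (replicate 2) or 19 (replicate 3). Of all 10050 tested genes, 2654, 1782 and 4583 passed in these fits. Dropping 1 of the 12 h controls made the count of members 4 (replicate 1), 3 (replicate 2) or 4 (replicate 3), with 1554, 1554 and 1429 of all genes. The calls of SLC2A1 and SLC2A3 were kept in each of these fits.

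In Ra-treated cells no member passed the test between 48 h and 12 h, and no other gene did either (0%), with a lowest adjusted p of 0.584 over all genes and 843 genes at an unadjusted p under 0.05. The 48 h levels of 8 members, ALDOA, ENO1, GPI, PDK1, PGAM1, PGK1, TALDO1 and TPI1, lay below all 12 h levels, which is 27.6% of members against 17% of all genes. ENO2 was the 1 member with all 48 h arrays above all 12 h arrays, against 2.49% of genes, though its closest arrays nearly tied (9.261 against 9.258). Without Ra 48 h replicate 2, 0 members and 0 genes passed in this comparison. Of the 8 members lower at 48 h here, all but PDK1 also had lower 48 h means in control cells, by -0.61 to -0.20 log2 units. For PGAM1 and PGK1 the control arrays did not overlap either.

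The test of whether the Ra effect at 48 h differed from the Ra effect at 12 h called no member, against 0.0199% of all genes. The lowest adjusted p among members was 0.103, for PDK1, and 4 members had an unadjusted p under 0.05 (PDK1, PFKFB2, SLC2A3 and SLC2A1), each with the 48 h effect below the 12 h effect, as in 15.4% of all genes. An effect past the test at 12 h and not at 48 h is therefore not shown to differ between the times. The Ra and the time comparisons share arrays, so their values are set side by side for each gene.

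**Figure D1:**
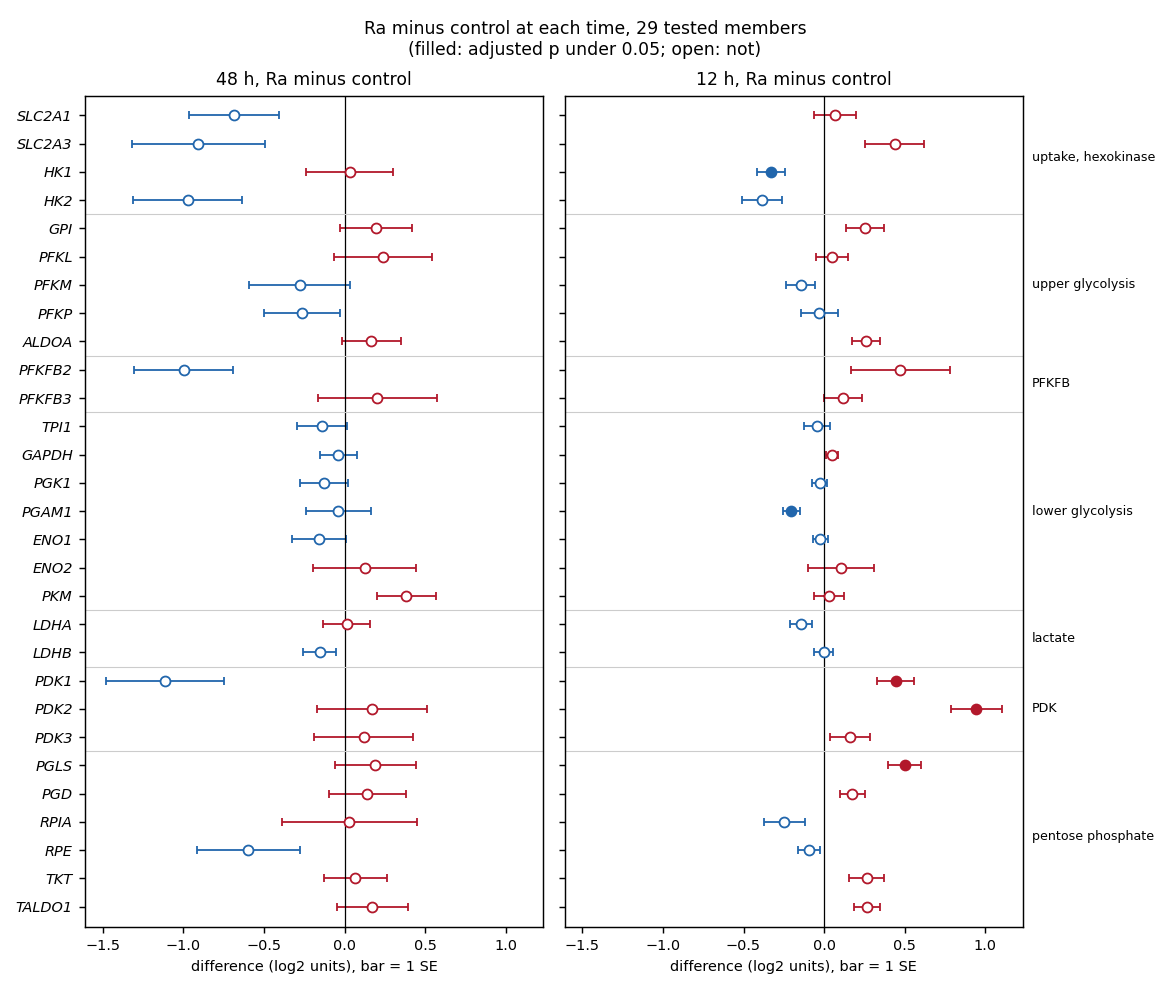
Difference between Ra and control (log2 units, horizontal axis) at 48 h (left) and 12 h (right) for the 29 tested genes, grouped by role, with bars of 1 SE from the fit of 3 arrays a group; filled points had an adjusted p under 0.05. The right panel holds 5 filled points (PDK2, PDK1, PGLS, HK1 and PGAM1), the left panel none, and the 4 genes farthest below 0 on the left after PDK1 at -1.11 are PFKFB2, HK2, SLC2A3 and SLC2A1.

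**Figure D2:**
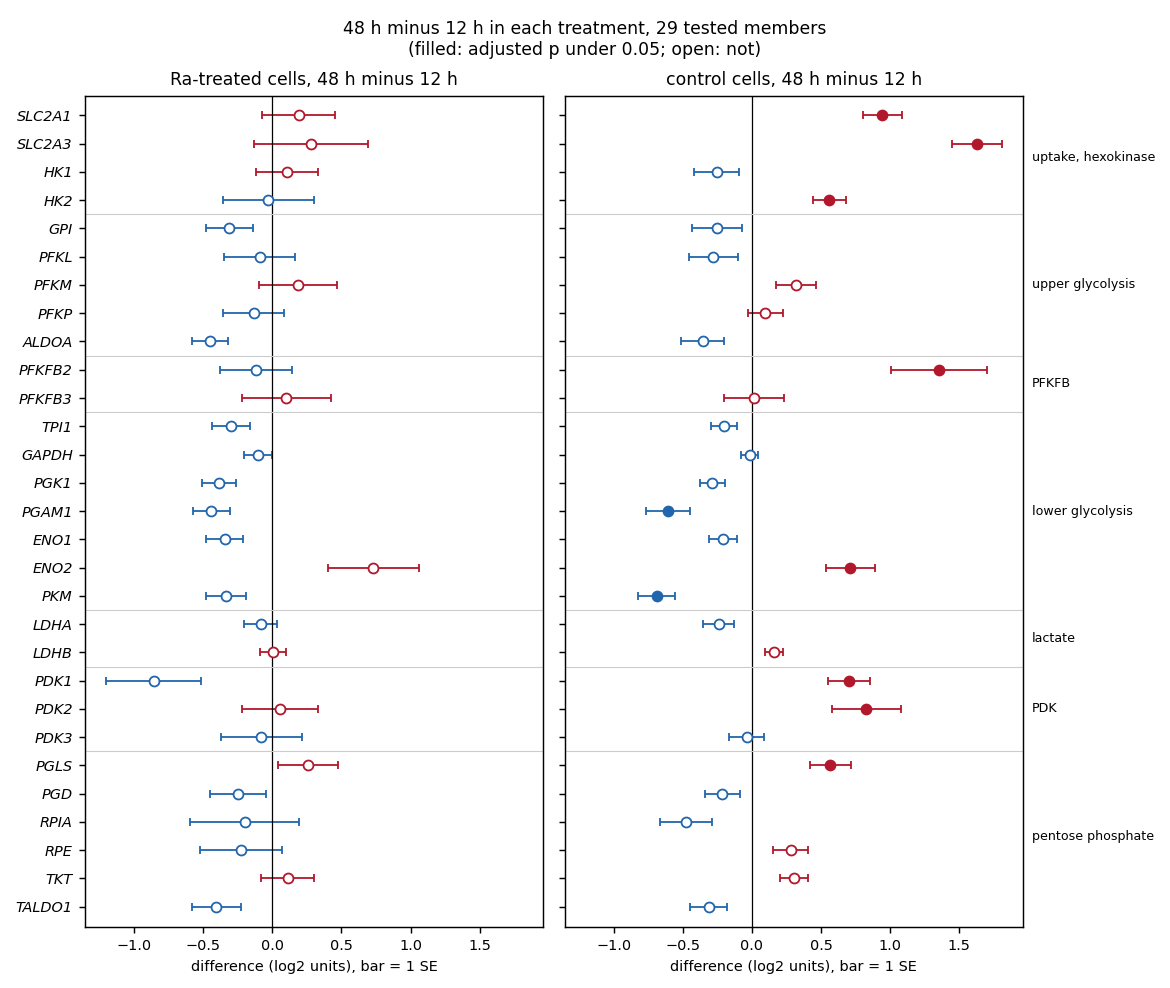
Difference between 48 h and 12 h (log2 units, horizontal axis) in Ra-treated cells (left) and control cells (right) for the 29 tested genes, with bars of 1 SE from the fit of 3 arrays a group; filled points had an adjusted p under 0.05. The right panel holds 8 filled points above 0, led by SLC2A3 at 1.63, and 2 below 0, PKM and PGAM1, and the left panel has none.

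The sequences just before the listed transcription starts of SLC2A1, HK2 and PDK1 are shown because these genes are well-known targets of hypoxia-inducible factor and lay lower on all Ra arrays at 48 h. They were thus picked partly by those 48 h values. No member passed the test at 48 h, and 18.6% of all tested genes lay lower on all Ra arrays there. A part of this factor in the differences was not tested. Capitals mark the core of the hypoxia response element, ACGTG or GCGTG, on either strand, in the 250 bases before each start listed by RefSeq on GRCh38.p14, at chr1:42958869-42959118 on the minus strand for SLC2A1, chr2:74833877-74834126 and chr2:74834920-74835169 on the plus strand for HK2, and chr2:172555123-172555372 and chr2:172555840-172556089 on the plus strand for PDK1.
SLC2A1: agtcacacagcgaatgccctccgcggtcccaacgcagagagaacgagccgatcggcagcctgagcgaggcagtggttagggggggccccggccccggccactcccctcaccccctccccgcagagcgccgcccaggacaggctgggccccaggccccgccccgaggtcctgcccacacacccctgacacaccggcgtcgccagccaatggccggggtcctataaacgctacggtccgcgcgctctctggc
HK2, first listed start: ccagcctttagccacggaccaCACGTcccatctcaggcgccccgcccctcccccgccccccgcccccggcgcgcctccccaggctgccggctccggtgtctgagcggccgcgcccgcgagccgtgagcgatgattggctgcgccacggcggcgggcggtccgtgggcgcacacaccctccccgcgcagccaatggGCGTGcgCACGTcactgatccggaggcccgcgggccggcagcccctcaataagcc
HK2, second listed start: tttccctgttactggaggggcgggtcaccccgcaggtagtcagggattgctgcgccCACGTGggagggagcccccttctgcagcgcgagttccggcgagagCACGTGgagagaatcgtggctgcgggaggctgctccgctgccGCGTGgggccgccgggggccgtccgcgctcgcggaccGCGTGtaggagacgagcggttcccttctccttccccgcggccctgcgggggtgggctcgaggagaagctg
PDK1, first listed start: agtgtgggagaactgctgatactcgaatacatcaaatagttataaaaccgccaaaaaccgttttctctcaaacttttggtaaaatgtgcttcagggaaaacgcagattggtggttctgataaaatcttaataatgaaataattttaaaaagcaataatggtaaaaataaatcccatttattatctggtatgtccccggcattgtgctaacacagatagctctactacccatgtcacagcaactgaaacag
PDK1, second listed start: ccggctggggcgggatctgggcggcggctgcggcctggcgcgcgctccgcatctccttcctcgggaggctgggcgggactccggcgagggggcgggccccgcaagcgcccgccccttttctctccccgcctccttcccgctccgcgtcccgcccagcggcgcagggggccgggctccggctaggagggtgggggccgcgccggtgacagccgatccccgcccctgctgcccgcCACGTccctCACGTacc
The single SLC2A1 window held 0 cores, the 2 HK2 windows 3 and 6, and the 2 PDK1 windows 0 and 2, where each CACGTG counts as ACGTG on both strands. Windows were listed for 30 of the 33 genes, without SLC2A3, PFKFB2 and SLC16A1, and 22 of the 30 had a core in at least 1 of their 58 windows. Apart from HK2 and PDK1, every tested member with a core had overlapping arrays at 48 h. Genes with more listed starts have more chances of a core, and the share by gene over the whole table was not counted, so the comparison below is by window. A core stood in 51.7% of these windows, against 43.2% of the 35116 windows of that length in the table. The ACGTG core was in 34.5% of them against 18.5%, GCGTG in 31% against 32.2%, and the E-box CACGTG, which overlaps ACGTG, in 12.1% against 6.34%. TGATGNAA, the core of the amino acid response element, was in 3.45% against 3.14%, and the cAMP response element TGACGTCA in 1.72% against 1.65%. Windows of 1 gene can overlap, and a match of these letters is a description of the sequence.

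The glucose transporters of the module were SLC2A1 and SLC2A3. SLC2A1, which encodes the basal transporter GLUT1, had 8.72, 7.99 and 8.39 log2 units on the Ra 48 h arrays, against 9.08, 9.08 and 8.99 on the control 48 h arrays. At 12 h it had 8.27, 8.06 and 8.19 in Ra-treated cells and 8.30, 7.88 and 8.14 in control cells. All control 48 h arrays were above the other 9 arrays. SLC2A1 was 1.92-fold higher at 48 h than at 12 h in control cells (0.94 ± 0.14, SE, adjusted p = 0.00525), and the same time difference in Ra-treated cells was 0.19 ± 0.26 (adjusted p = 0.785). The Ra difference was -0.69 ± 0.28 at 48 h (adjusted p = 0.272) and 0.07 ± 0.13 at 12 h (adjusted p = 0.763).

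SLC2A3 encodes GLUT3, a transporter of high glucose affinity best known from neurons. It had 10.26, 8.58 and 9.00 log2 units in Ra 48 h, against 10.06, 10.21 and 10.29 in control 48 h. It had 9.18, 9.07 and 8.75 in Ra 12 h, against 8.87, 8.60 and 8.22 in control 12 h. Ra 48 h replicate 1 lay inside the range of control 48 h, and the other two Ra replicates lay below it. In control cells SLC2A3 rose 3.09-fold with time (1.63 ± 0.18, adjusted p = 0.0031). The Ra difference at 48 h was -0.91 ± 0.41 (adjusted p = 0.295), and at 12 h it was 0.44 ± 0.18 (adjusted p = 0.147; 0.0157 with the replicate block). The other probe sets of SLC2A3 gave 0.55 and 0.71 at 12 h and -0.98 and -1.17 at 48 h; its near-identical paralog SLC2A14 may share probes with them.

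The hexokinases HK1 and HK2 phosphorylate glucose, HK1 as the constitutive form and HK2 as the form induced by insulin and hypoxia. HK1 had 10.82, 10.79 and 10.78 log2 units in Ra 12 h, against 11.08, 11.00 and 11.30 in control 12 h. The groups did not overlap, and HK1 fell by 0.33 ± 0.09 (1.26-fold, adjusted p = 0.0456). At 48 h it had 11.26, 10.51 and 10.95 in Ra-treated cells, against 10.70, 10.71 and 11.21 in control cells, a difference of 0.03 ± 0.27 (adjusted p = 0.962). All control 48 h arrays lay within the range of Ra 48 h. HK2 had 8.44, 7.35 and 8.32 in Ra 48 h, against 9.04, 9.09 and 8.91 in control 48 h. At 12 h it had 7.97, 7.94 and 8.29 in Ra-treated cells, against 8.33, 8.52 and 8.51 in control cells. Every Ra array was below every control array of its time. The Ra difference was -0.97 ± 0.34 at 48 h (adjusted p = 0.237) and -0.38 ± 0.12 at 12 h (adjusted p = 0.0781; 0.0407 with the replicate block). HK2 rose by 0.56 ± 0.12 with time in control cells (adjusted p = 0.0151), while the time difference in Ra-treated cells was -0.03 ± 0.33 (adjusted p = 0.98). A dimmer probe set of HK2 showed a difference of -0.34 at 48 h and of 0.06 at 12 h, so the 12 h difference was not seen by both. Its 48 h arrays overlapped, with 6.305, 4.999 and 6.232 in Ra-treated cells against 6.439, 6.236 and 5.868 in control cells. Only Ra 48 h replicate 2 lay below all 3 control arrays there.

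SLC2A1, HK2, PDK1 and PFKFB2 were also compared at 48 h without 1 array. Without Ra 48 h replicate 2, which was the lowest Ra 48 h array for all 4 of these genes, the 48 h differences were -0.50 ± 0.17 for SLC2A1, -0.63 ± 0.16 for HK2, -0.74 ± 0.18 for PDK1 and -0.85 ± 0.25 for PFKFB2. None passed the test then either (adjusted p = 0.168 to 0.199), and 0 of all genes did. For each of the 4 genes, all Ra 48 h arrays lay below all control 48 h arrays before any array was left out. The 2 remaining Ra arrays therefore had to lie below the control arrays too, so their position is no separate test of the differences.

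The upper steps from glucose 6-phosphate to the triose phosphates are carried out by GPI, an isomerase, the phosphofructokinase subunits PFKL, PFKM and PFKP, and the aldolase ALDOA. None of these 5 genes passed the test in any comparison. Their Ra differences ran from -0.28 to 0.24 log2 units at 48 h and from -0.15 to 0.26 at 12 h, where ALDOA had the lowest adjusted p of the 5 (0.0899). ALDOA had 13.76, 13.74 and 13.50 log2 units in Ra 12 h, against 13.32, 13.35 and 13.55 in control 12 h, so 1 control array lay within the Ra range. With time, these genes differed by -0.45 to 0.19 in Ra-treated cells and by -0.36 to 0.32 in control cells.

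PFKFB2 and PFKFB3 make and degrade fructose 2,6-bisphosphate, the main activator of phosphofructokinase. PFKFB2 had 6.59, 6.06 and 6.39 log2 units in Ra 48 h, against 7.01, 7.28 and 7.74 in control 48 h. It had 6.40, 6.75 and 6.25 in Ra 12 h, against 6.48, 6.25 and 5.25 in control 12 h. The 48 h groups did not overlap, and control 12 h replicate 3 was the lowest array of all. PFKFB2 rose 2.55-fold with time in control cells (1.35 ± 0.35, adjusted p = 0.0262), and its time difference in Ra-treated cells was -0.12 ± 0.26 (adjusted p = 0.869). The Ra difference was -0.998 ± 0.306 at 48 h (adjusted p = 0.217) and 0.47 ± 0.31 at 12 h (adjusted p = 0.34). PFKFB3 differed by 0.20 ± 0.37 at 48 h and by 0.12 ± 0.12 at 12 h, with overlapping arrays at both times.

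The lower part of glycolysis runs from TPI1 to PKM. GAPDH, the triose phosphate dehydrogenase often used as a loading control, had 15.25, 15.06 and 15.38 log2 units in Ra 48 h, against 15.21, 15.22 and 15.38 in control 48 h. It had 15.32, 15.29 and 15.38 in Ra 12 h, against 15.28, 15.28 and 15.30 in control 12 h. All 12 values lay between 15.06 and 15.38 log2 units, and the Ra difference was -0.04 ± 0.12 at 48 h and 0.05 ± 0.04 at 12 h. TPI1, PGK1 and ENO1, a triose isomerase, a kinase that forms ATP and the common enolase, had Ra differences between -0.16 and -0.03 at both times.

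PGAM1 had 14.02, 13.99 and 14.04 log2 units in Ra 12 h, against 14.12, 14.28 and 14.27 in control 12 h. The 12 h groups did not overlap, and PGAM1 fell by 0.20 ± 0.05 (1.15-fold, adjusted p = 0.0455). At 48 h it had 13.60, 13.34 and 13.79 in Ra-treated cells, against 13.32, 13.55 and 13.97 in control cells, with overlapping arrays. In control cells it fell with time by 0.61 ± 0.16 (adjusted p = 0.0275).

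PKM, the pyruvate kinase of most tissues, had 13.50, 13.09 and 13.32 log2 units in Ra 48 h, against 12.81, 12.74 and 13.20 in control 48 h. It had 13.73, 13.71 and 13.46 in Ra 12 h, against 13.46, 13.64 and 13.72 in control 12 h. The 48 h arrays of control cells were all below their 12 h arrays, and PKM fell by 0.69 ± 0.14 with time (adjusted p = 0.0113). The Ra difference at 48 h was 0.38 ± 0.18 (adjusted p = 0.314).

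ENO2, the neuronal enolase, had 10.26, 9.26 and 9.51 log2 units in Ra 48 h, against 9.52, 9.32 and 9.81 in control 48 h. It had 9.09, 9.26 and 8.49 in Ra 12 h, against 8.94, 9.00 and 8.58 in control 12 h. In both treatments the 48 h arrays lay above the 12 h arrays. In Ra-treated cells this was nearly a tie, with 9.261 on Ra 48 h replicate 2 against 9.258 on Ra 12 h replicate 2. The time difference was 0.73 ± 0.33 in Ra-treated cells (adjusted p = 0.589) and 0.71 ± 0.18 in control cells (adjusted p = 0.0239), where ENO2 rose. With the probe set used, PGK1 differed with time by -0.29 ± 0.09 in control cells (adjusted p = 0.0515), while its other bright probe sets gave -0.37, -0.66 and -0.89.

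LDHA and LDHB, the lactate dehydrogenase subunits, passed the test in no comparison. LDHA had 14.31, 14.38 and 14.51 log2 units in Ra 12 h, against 14.44, 14.57 and 14.61 in control 12 h. The arrays overlapped, and the difference was -0.14 ± 0.07 (adjusted p = 0.188; 0.0431 with the replicate block). At 48 h LDHA differed by 0.01 ± 0.15 and LDHB by -0.16 ± 0.10.

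The pyruvate dehydrogenase kinases of the module were PDK1, PDK2 and PDK3. PDK1 had 8.35, 7.12 and 8.16 log2 units in Ra 48 h, against 9.12, 8.77 and 9.09 in control 48 h. It had 8.66, 8.83 and 8.71 in Ra 12 h, against 8.37, 8.09 and 8.41 in control 12 h. All Ra arrays were below the control arrays at 48 h and all were above them at 12 h. PDK1 rose by 0.44 ± 0.11 at 12 h (1.36-fold, adjusted p = 0.0409), and its difference at 48 h was -1.11 ± 0.36 (2.17-fold lower, adjusted p = 0.228). The Ra effect at 48 h minus that at 12 h was -1.56 ± 0.39 (unadjusted p = 0.00165, adjusted p = 0.103). It was -1.18 ± 0.20 without Ra 48 h replicate 2 (adjusted p = 0.0349, among 320 genes). Without Ra 48 h replicate 1 it was -1.80 ± 0.37 (adjusted p = 0.0159, among 1041 genes). In 19 of the 24 alternatives run for this difference it did not pass. The time difference was -0.86 ± 0.34 in Ra-treated cells (adjusted p = 0.587) and 0.70 ± 0.15 in control cells, where PDK1 rose (adjusted p = 0.0155). A dimmer probe set of PDK1 gave -0.47 at 48 h and 0.44 at 12 h. Its 48 h arrays overlapped, with 4.99, 4.98 and 5.28 in Ra-treated cells against 6.17, 5.09 and 5.39 in control cells.

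PDK2, the kinase form found in most tissues, had 6.97, 7.23 and 6.80 log2 units in Ra 12 h, against 6.02, 6.29 and 5.86 in control 12 h. The lowest Ra array, 6.80, was above the highest control array, 6.29, and PDK2 rose by 0.94 ± 0.16 (adjusted p = 0.0135). At 48 h it had 7.47, 6.83 and 6.86 in Ra-treated cells, against 7.42, 6.57 and 6.66 in control cells. The 48 h groups overlapped, with a difference of 0.17 ± 0.34 (adjusted p = 0.815), and PDK2 had risen with time in control cells by 0.83 ± 0.25 (adjusted p = 0.0433). Its Ra effect at 48 h minus that at 12 h was -0.77 ± 0.38 (adjusted p = 0.283). A dimmer probe set gave 0.44 at 12 h. Without Ra replicate 1, Ra replicate 2 or control replicate 1, its adjusted p at 12 h was 0.0512, 0.0541 or 0.0516. PDK3 differed by 0.12 ± 0.31 at 48 h and by 0.16 ± 0.13 at 12 h.

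**Figure D3:**
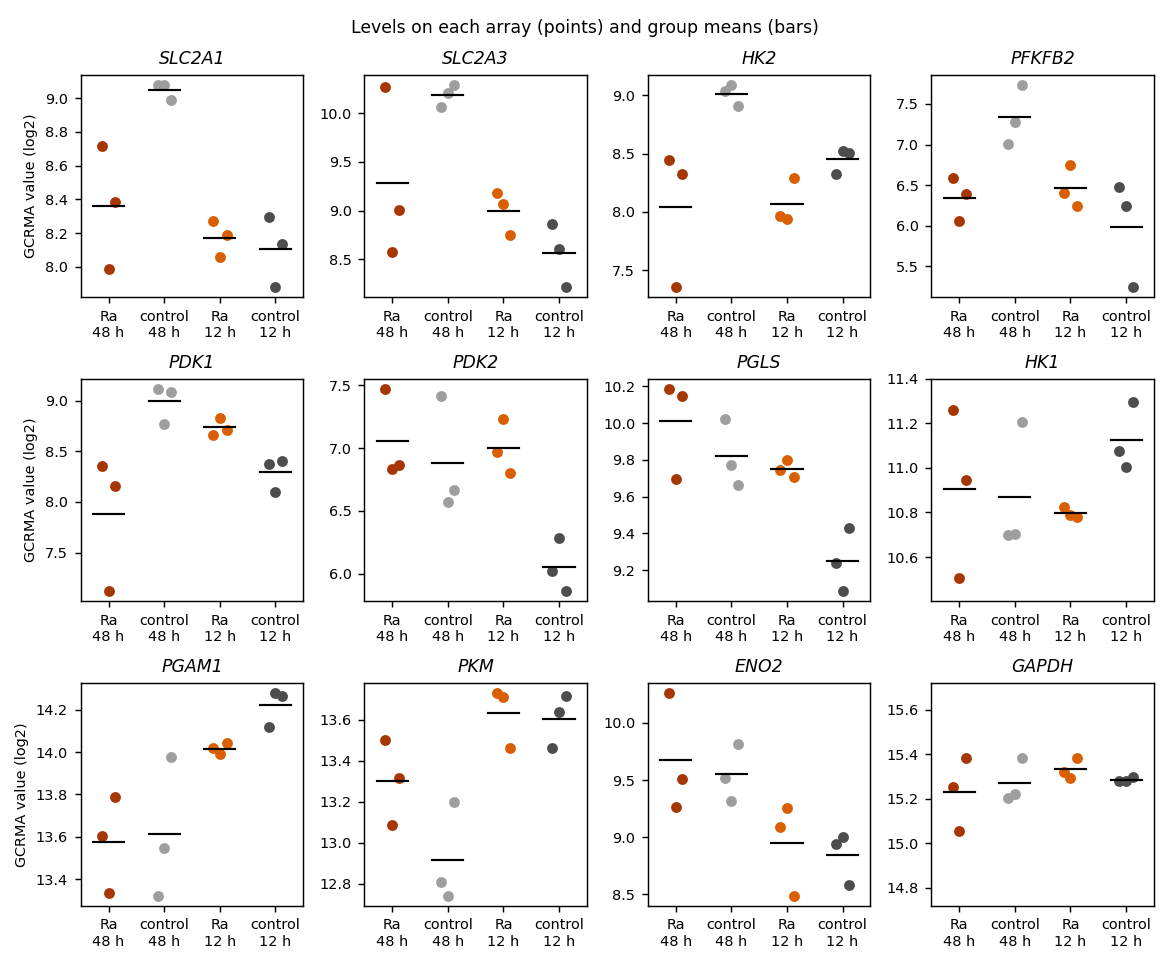
GCRMA level (log2 units, vertical axis, scale set for each gene) on each of 3 arrays a group (points) with the group mean (bar) for 11 genes past the test or at least 2-fold different in a comparison, and for GAPDH. In control cells SLC2A1, SLC2A3, HK2 and PFKFB2 sit higher at 48 h than at 12 h, while the Ra 48 h arrays of SLC2A1, HK2, PFKFB2 and PDK1 lie below the control 48 h arrays.

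In the pentose phosphate branch, PGLS, which opens the lactone ring in the oxidative arm, had 9.74, 9.80 and 9.71 log2 units in Ra 12 h, against 9.24, 9.08 and 9.43 in control 12 h. The groups did not overlap, and PGLS rose by 0.50 ± 0.10 (1.41-fold, adjusted p = 0.0232); a neighbouring probe set gave 0.68. At 48 h it had 10.19, 9.69 and 10.15 in Ra-treated cells, against 10.02, 9.77 and 9.66 in control cells, which overlapped. PGLS rose with time in control cells by 0.57 ± 0.15 (adjusted p = 0.0263).

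PGD, which releases NADPH and ribulose 5-phosphate, had Ra arrays above all control arrays at 12 h, as had TALDO1, the transaldolase of the non-oxidative arm. The differences were 0.18 ± 0.08 for PGD (adjusted p = 0.182) and 0.27 ± 0.08 for TALDO1 (adjusted p = 0.0687; 0.0188 with the replicate block). TKT, the transketolase, differed by 0.26 ± 0.11 (adjusted p = 0.144; 0.0329 with the replicate block). RPIA and RPE, the isomerase and epimerase of the pentose phosphates, lay lower at 12 h by values of -0.25 ± 0.13 and -0.09 ± 0.07 and did not pass. At 12 h, then, arrays did not overlap for 5 members that were higher, 17.2% of the 29 against 18.4% of all tested genes, and for 3 that were lower, 10.3% against 16.9%. At 48 h the 6 genes of the branch differed by -0.60 to 0.19 log2 units, with overlapping arrays for each.

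**Figure D4:**
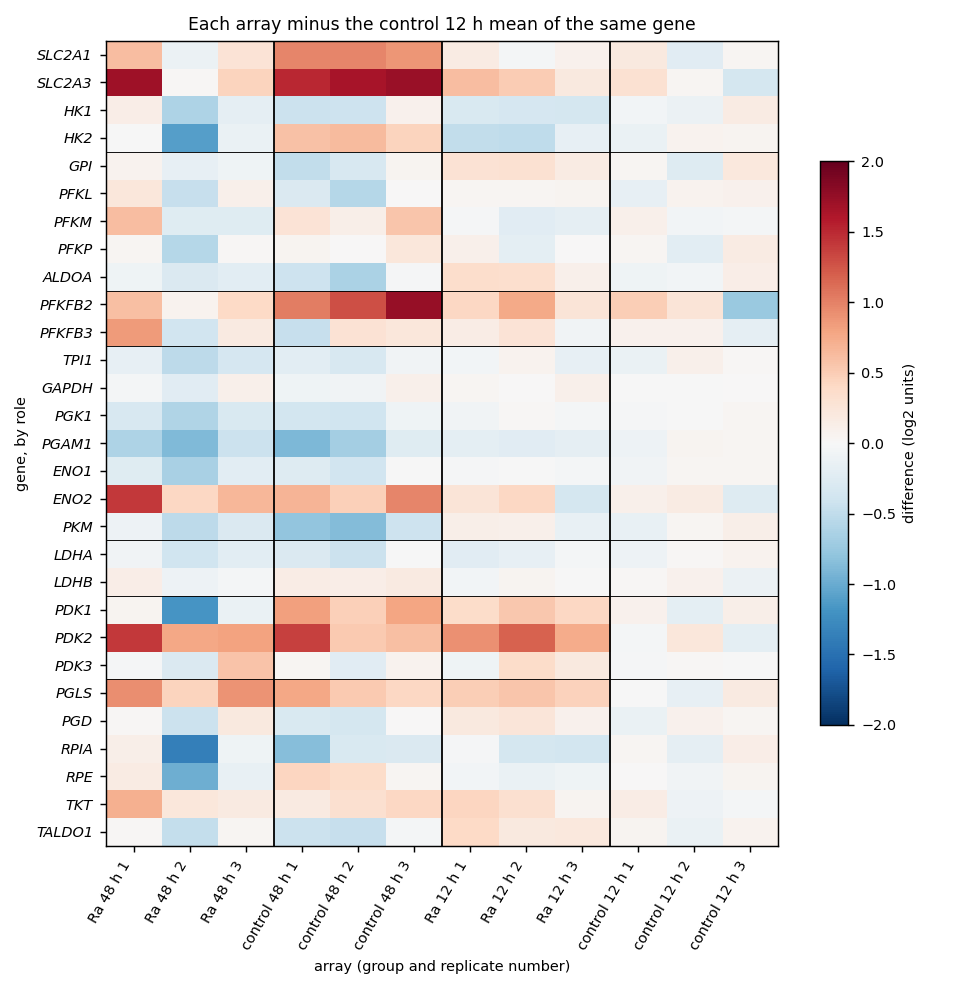
Difference of each array from the control 12 h mean of the same gene (log2 units, colour, red higher and blue lower) for the 29 tested genes in rows by role and the 12 arrays in columns by group. Ra 48 h replicate 2 is blue for most genes, and SLC2A3 and PFKFB2 are red on all 3 control 48 h arrays; the values run from -1.37 to 1.75.

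Genes that feed or regulate the pathway were counted as lists chosen by function. At 12 h, 7.34% of all tested genes rose and 6.25% fell, which is the background of each list. Among 17 tested genes of glycogen metabolism, 0 rose and 3 fell: GYS1, the glycogen synthase (-0.70 ± 0.11, adjusted p = 0.0117), PPP1R3C, a subunit that targets phosphatase to glycogen (-0.80 ± 0.19, adjusted p = 0.0339), and GBE1, the branching enzyme (-0.35 ± 0.08, adjusted p = 0.0315). Among 26 tested genes of pyruvate entry and the citric acid cycle, 0 rose and 3 fell (OGDH, IDH3A and SDHA, by 0.38 to 0.44 log2 units). Among 17 tested isoforms and side routes, SLC2A10, a further glucose transporter family member, rose by 1.16 ± 0.14 and DERA, a deoxyribose phosphate aldolase, by 0.34 ± 0.07, while TIGAR, a fructose bisphosphatase induced by p53, fell by 0.54 ± 0.08. The median differences were -0.05, -0.10 and -0.03 log2 units in these 3 lists, against 0.01 over all genes.

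TXNIP, which binds thioredoxin and lowers glucose uptake, was the 1 gene to pass among 12 tested regulators at 12 h. It had 10.02, 10.15 and 10.99 log2 units in Ra 12 h, against 8.36, 8.76 and 9.31 in control 12 h, and rose by 1.58 ± 0.30 (adjusted p = 0.0196). At 48 h it had 3.19, 5.21 and 9.00 in Ra-treated cells, against 3.41, 3.17 and 3.89 in control cells. The Ra 48 h replicates spanned most of the range of the gene, and values under 5 depend on the background model of GCRMA. Among 5 tested hexosamine genes OGA, which removes O-GlcNAc from proteins, rose by 0.58 ± 0.09 at 12 h. Among 15 tested hypoxia-response genes outside glycolysis, 3 rose and 2 fell at 12 h. Among them were BNIP3L (0.67 ± 0.06, adjusted p = 0.00477), a mitophagy receptor, and DDIT4 (-0.66 ± 0.11, adjusted p = 0.0126), an inhibitor of mTORC1. The other gene counted as lower was EGLN3, a prolyl hydroxylase of the oxygen sensor (-0.85 ± 0.20, adjusted p = 0.0333). EGLN3 reached 5 log2 units only on the control 12 h arrays (5.37, 5.33 and 5.57). The filter thus kept it through the group where it was high, and its fall was partly set by that choice. Its size also depends on the background model, since the mean in Ra 12 h is under 5. In none of the 6 lists did a gene pass at 48 h, and their medians there ran from -0.48 to -0.19, against -0.20 over all genes.

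Between 48 h and 12 h in control cells, 7 of the 15 tested hypoxia-response genes rose and 2 fell, with a median of 0.56 log2 units against 0.01 over all genes. Of all tested genes 16.6% rose and 16.6% fell in this comparison, which is the background of each list. EGLN3, among the hypoxia-response genes that fell, passed the filter only through its control 12 h arrays. VEGFA, the vascular growth factor, rose by 2.26 ± 0.14, NDRG1, a stress-induced gene, by 1.88 ± 0.30 and ADM, adrenomedullin, by 1.86 ± 0.21. Among the isoforms and side routes 7 rose and 2 fell. PCK2, the mitochondrial PEP carboxykinase, was higher by 2.14 ± 0.30 and HKDC1, a further hexokinase, by 1.82 ± 0.33. BPGM, which makes 2,3-bisphosphoglycerate, was higher by 1.38 ± 0.30. It had 4.61 log2 units on control 12 h replicate 3, so the size of its change depends partly on the background model.

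In the same time comparison 3 of 17 glycogen genes rose and 1 fell, among them PYGB, a glycogen phosphorylase (0.99 ± 0.19), and 3 of 26 genes of pyruvate entry and the citric acid cycle rose and 2 fell, with PDP1, a phosphatase that reactivates pyruvate dehydrogenase, higher by 0.87 ± 0.20. In the hexosamine list GFPT1, its rate-limiting enzyme, rose by 1.55 ± 0.28 and OGT, the O-GlcNAc transferase, by 1.17 ± 0.20, while OGA fell by 1.08 ± 0.25. Of the 12 regulators 2 rose and 2 fell: EPAS1, which encodes HIF-2α, rose by 1.59 ± 0.14, and MLXIP, a glucose-responsive transcription factor, fell by 1.03 ± 0.23. TXNIP fell (adjusted p = 0.00105) to levels under 5 in control 48 h, so the size of its change follows the background model and is not given as a fold.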

How the data were processed

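RNA of 12 HK-2 samples was hybridised to Affymetrix 3′ arrays with 54675 probe sets. The deposited values are log2 intensities that the authors computed with GCRMA, per the submitters' processing notes; its version is not given in the sources used here. GCRMA corrects the background by a model of probe sequence, so levels under 5 log2 units follow that model, and levels of different probe sets cannot be ranked. The number of arrays limits the precision.

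Probe sets were named from the platform annotation: 41097 have 1 gene symbol, 1801 several and 11777 none. Those with 1 symbol and at least 5 log2 units on at least 3 arrays were kept, and the one with the highest mean over the 12 arrays stood for each gene (10050 genes). Each comparison was fitted with limma 3.58.1 in R 4.3.3 (lmFit, eBayes with an intensity trend) on the 6 arrays of its 2 groups, because the 48 h arrays spread more than the 12 h arrays; the difference between Ra effects used all 12. p-values were adjusted by the Benjamini-Hochberg method over all genes, with a threshold of 0.05. The code was tested on simulated data.

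Replicate numbers come from the labels. At 12 h the deviations of same-numbered samples correlated at 0.18, 0.42 and 0.34 and those of differently numbered ones at -0.40 to -0.004, so the blocked fit is given there; in the other comparisons the numbers did not pair the samples. Replicates are labelled biological; whether they were grown on separate days is not given in the sources used here. Scan dates were not used here. No 2 arrays were identical.

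Genes are named by role: every-array values are given for members past the test in a comparison or at least 2-fold different between Ra and control, and for GAPDH; of each further list, up to 3 genes with the largest change past the test. ALDOA and LDHA were added after their values were seen. The members and lists were chosen with earlier results of these data known. Promoter sequences are those of RefSeq for GRCh38.p14. The alternatives tried were another normalization, other filters and probe set rules, other variance models, array weights, a minimum fold, the replicate block and leaving out each array.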

Additional observations from a re-analysis of the deposited data

Results flagged for a closer look

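PDK1 drew attention because its Ra effect, with the probe set used, ran in opposite directions at the 2 times on every array. All 3 Ra arrays were below all 3 control arrays at 48 h (-1.11 ± 0.36 log2 units). All 3 were above them at 12 h (0.44 ± 0.11). The share of all tested genes with arrays opposite in this way was not counted. The difference between the effects was -1.56 log2 units (unadjusted p = 0.00165, adjusted p = 0.103 in limma), which does not pass after adjustment over all genes. The lowest of the Ra 48 h arrays, 7.12 for replicate 2, belongs to the array whose 75th percentile was 6.30 log2 units. Without that array the difference was -1.18 (adjusted p = 0.0349, among 320 genes). It was -1.28 with quantile normalization (adjusted p = 0.0151, among 945 genes) and -1.29 with arrays centred on their median (adjusted p = 0.0125, among 856 genes). With array weights it was -1.06 (adjusted p = 0.000532, among 4464 genes). PDK1 passed in 5 of the 24 alternatives run for this difference, and these are among them. In the other 19 it did not pass, with an adjusted p of 0.0642 with the replicate block and up to 0.269. A dimmer probe set of PDK1 had overlapping arrays at 48 h.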

How the results depend on the processing

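Of the members past the test or with arrays that did not overlap, TKT alone turned its direction under an alternative that was run: over time in control cells it was 0.31, but -0.96 without _x_at and _s_at probe sets and -0.07 with the mean of its probe sets. The number past the test depended on the settings. At 12 h (5 members, 1366 genes) it was 0 with 1 spread pooled over 12 arrays (3 genes), 1 without a filter on low values (506 genes), 3 without _x_at and _s_at probe sets (904 genes), 3 with no intensity trend (1106 genes), where HK1 (adjusted p = 0.072) and PGAM1 (adjusted p = 0.141) lost the call, 8 with array weights (2007 genes), 10 with the replicate block (2351 genes), 0 with a minimum change of 1.2-fold (58 genes), and 0 to 5 when 1 array was left out (293 to 1388 genes). At 48 h (0 members, 0 genes) it was 3 with the pooled spread (1262 genes), 2 with quantile normalization (639 genes), 2 with arrays centred on their median (714 genes), 14 with array weights (4790 genes), 0 with the replicate block (131 genes), 0 with a filter at 7 log2 units (307 genes), 4 in the fit of all 12 arrays but Ra 48 h replicate 2 (1943 genes), which was chosen after seeing the data, and 0 when 1 array was left out (0 to 71 genes). For the difference of the Ra effects (0 members, 2 genes) it was 1 with quantile normalization (945 genes), 1 with centred arrays (856 genes), 11 with array weights (4464 genes), 0 with the replicate block (36 genes), 0 without a filter (5 genes), with a filter at 7 (43 genes), with robust moderation (17 genes) and with 1 array weight a group, chosen after seeing the data (7 genes), and 0 to 3 when 1 array was left out (1 to 1041 genes; 3 members without Ra 48 h replicate 1, 1 without Ra 48 h replicate 2). In control cells over time (10 members, 3334 genes) it was 5 without a filter (2091 genes), 6 with the replicate block (2706 genes), 2 with a minimum of 1.2-fold (1422 genes), 23 with array weights (5788 genes), 7 with the pooled spread (1955 genes), and 3 to 19 when 1 array was left out (1429 to 4583 genes). In Ra-treated cells over time (0 members, 0 genes) it was 5 with array weights (521 genes), 0 with centred arrays (41 genes), 0 without a filter (2 genes), 0 with the replicate block (235 genes), and 0 when 1 array was left out (0 to 4 genes). The replicate numbers did not pair the samples outside the 12 h comparison: same-numbered samples correlated at 0.30, -0.22 and 0.10 at 48 h, at 0.02, -0.02 and 0.07 in control cells over time, and at 0.12, 0.01 and 0.18 in Ra-treated cells over time. Apart from fewer genes or arrays in a fit, the cause of these differences was not tested. Signals under 5 log2 units limit PFKFB4, ALDOC and EGLN3, and also TXNIP at 48 h. BPGM was under 5 on control 12 h replicate 3 (4.61) and on Ra 48 h replicate 2 (3.82).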
